A study of Mus musculus with 9 samples.

Results

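Hearts of C57BL/6 mice given angiotensin II together with prostaglandin E1 (AngII+PGE1) were compared with hearts of mice given saline, to find what stayed, or newly stood, apart from saline under both agents. The comparison used 6 of the 9 mRNA libraries of the study: 3 from AngII+PGE1 hearts and 3 from saline hearts. The other 3 libraries came from hearts given angiotensin II alone (AngII), and their values stand beside each result. All 3 groups were of the same strain and tissue, and the labels name no genetic alteration. The sources used here give no dose, route, length of treatment, age, sex or hour of collection. Nothing in the labels says that each library is a separate animal, so p-values cover only the spread among these 9 libraries, some of which may be technical. Of 16951 genes in the table, 11902 reached 1 FPKM (fragments per kilobase of transcript, scaled to the depth of the library) in at least 3 of the 9 libraries and were tested. At the edge of that rule, 159 genes had their third-highest library between 1 and 1.1 FPKM, and 152 left-out genes had it between 0.9 and 1 FPKM.

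Angiotensin II is the effector peptide of the renin-angiotensin system. Through its type 1 receptor it constricts vessels, enlarges cardiomyocytes and drives fibroblasts to deposit collagen. Prostaglandin E1 acts through the EP receptors, which couple to Gs (EP2 and EP4), to Gi (EP3) or to calcium release (EP1), and is a vasodilator. The series title names the EP3 receptor and netrin-1. Whole heart is mostly cardiomyocyte RNA, with endothelial cells, fibroblasts, mural cells and leukocytes contributing the rest. In whole tissue, fewer cells of a type and less RNA per cell cannot be told apart.

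The hearts showed the labelled tissue: Myh6 (the adult myosin heavy chain) lay at 4196.30 to 5810.35 FPKM in AngII+PGE1, 4333.62 to 6262.34 in AngII and 5239.06 to 6033.51 in saline libraries. The ventricular light chain Myl2 was at 13914.3 FPKM or more in all 9 libraries, while the atrial light chain Myl7 did not exceed 3.26 FPKM. The libraries are numbered 1 to 3 within a group and the numbers pair nothing. Library positions did not follow the groups throughout. On the first principal component, which held 62.3% of the variance, AngII+PGE1 1 and saline 2 lay on the side of the 3 AngII libraries, and AngII+PGE1 2 and 3 lay on the side of saline 1 and 3. Across genes AngII+PGE1 1 correlated at 0.986 with saline 2, and at 0.966 and 0.958 with AngII+PGE1 2 and 3, and saline 1 with saline 3 at 0.994. Saline 1 and 3 lay above or below all 7 other libraries for 26.3% of tested genes. Counts of genes that passed, and some of the other results, are given with and without saline 2 and AngII+PGE1 1.

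Under both agents 2 genes differed from saline (limma on log2(FPKM + 1), Benjamini-Hochberg adjusted p under 0.05), and both fell: Trp53i11 and Cldn5. These are 0.0168% of the genes tested, and no gene rose. By comparison 370 genes (3.11%) differed between AngII and saline hearts, and 48 genes (0.403%) between AngII+PGE1 and AngII hearts. At an unadjusted p under 0.05, 504 genes (4.23%) stood apart between AngII+PGE1 and saline, 133 of them higher (1.12%) and 371 lower (3.12%). The libraries of both groups did not overlap for 1213 genes (10.2%), of which 274 were higher (2.3%) and 939 lower (7.89%). Of all tested genes 66% had a negative difference. Their median log2 difference was -0.07, and median-ratio scaling moved it to 0.01. An exact permutation test of 3 against 3 libraries cannot give a p below 0.1, so single genes rest on the limma fit. The count of 2 is fragile: it was 23 (0.193%) without saline 2 and 20 (0.168%) without saline 2 and AngII+PGE1 1, but 0 without saline 1, saline 3, AngII+PGE1 1, AngII+PGE1 3, AngII 1 or AngII 2, 1 without AngII+PGE1 2 (a gene other than Trp53i11 and Cldn5) and 6 without AngII 3. Leaving out any single library also moved the count of 370 by over 1.5 times, and any but AngII 1 moved the count of 48 as far.

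Trp53i11 (gene ID 277414), a p53-inducible gene, had 8.72, 8.54 and 10.37 FPKM in AngII+PGE1 hearts, 24.50, 28.45 and 19.35 in AngII hearts, and 28.21, 34.64 and 26.60 in saline hearts. The AngII+PGE1 libraries lay below every other library and the AngII and saline ranges overlapped. Its mean was 9.21 ± 1.01 FPKM under both agents and 29.8 ± 4.25 in saline (SD, n = 3 each), 30.9% of saline. The log2 difference was -1.59 (SE 0.18, limma adjusted p = 0.0460), and -1.45 without saline 2 and AngII+PGE1 1. AngII alone differed from saline by -0.30 (limma adjusted p = 0.236), and the direct comparison of AngII+PGE1 with AngII passed at -1.29 (limma adjusted p = 0.0388). The authors' deposited table lists a log2 ratio of -1.61 for AngII+PGE1 over saline.

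Cldn5 (gene ID 12741) encodes claudin-5, the tight-junction protein of endothelial cells. It had 9.89, 8.89 and 7.16 FPKM in AngII+PGE1 hearts, 20.94, 20.96 and 14.99 in AngII hearts, and 23.75, 25.79 and 25.86 in saline hearts. No AngII+PGE1 library reached the lowest AngII or saline library. Mean Cldn5 was 8.65 ± 1.38 FPKM under both agents and 25.1 ± 1.2 in saline (SD, n = 3 each), 34.4% of saline. The log2 difference was -1.45 (SE 0.17, limma adjusted p = 0.0460), and between -1.54 and -1.43 when saline 2, AngII+PGE1 1 or both were left out. AngII alone gave -0.40 against saline (limma adjusted p = 0.132), and AngII+PGE1 against AngII gave -1.04 (limma adjusted p = 0.0449). The authors' deposited table lists -1.44.

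The promoters of both called genes are shown from RefSeq (GRCm38.p6, not the mm9 build named by the submitters), as the 250 bases before the annotated start, 5′ to 3′ on the gene's strand. Capitals mark the CCAAT box, searched as CCAAT on both strands, which 37.5% of all 27025 genes with such a window hold. The Cldn5 window is chr16:18776597-18776846 (plus strand) and holds 2 copies, ending 113 and 83 bases before the start. The Trp53i11 window is chr2:93187298-93187547 (plus strand) and holds 0.
Cldn5: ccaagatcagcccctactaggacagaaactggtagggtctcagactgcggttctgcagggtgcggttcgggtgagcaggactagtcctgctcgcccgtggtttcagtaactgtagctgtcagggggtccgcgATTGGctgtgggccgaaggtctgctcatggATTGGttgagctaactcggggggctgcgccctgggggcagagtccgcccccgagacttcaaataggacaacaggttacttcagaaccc
Trp53i11: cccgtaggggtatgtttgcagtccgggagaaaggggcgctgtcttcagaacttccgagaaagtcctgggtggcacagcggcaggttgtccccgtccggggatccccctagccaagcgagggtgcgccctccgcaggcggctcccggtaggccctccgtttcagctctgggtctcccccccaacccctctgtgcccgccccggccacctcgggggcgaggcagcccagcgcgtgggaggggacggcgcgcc

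The next genes by p, which missed the threshold, were Angptl4, Ier3, Col5a3 and Ccl8. Angptl4, a secreted inhibitor of lipoprotein lipase, had 1.22, 2.46 and 2.80 FPKM under both agents, 4.48, 4.64 and 2.52 under AngII, and 11.47, 9.24 and 10.88 in saline (log2 difference from saline -1.90, SE 0.25, limma adjusted p = 0.0583). Every AngII+PGE1 and every AngII library lay below every saline library. Ier3, an immediate early gene of survival and stress signalling, had 64.57, 52.68 and 49.69 FPKM under both agents, 62.61, 79.28 and 71.43 under AngII, and 19.71, 27.85 and 20.29 in saline (1.27, SE 0.18, limma adjusted p = 0.09998). Its AngII and AngII+PGE1 ranges overlapped and both lay above saline. Ccl8, a monocyte-attracting chemokine, had 12.84, 4.08 and 11.67 FPKM under both agents, 9.52, 15.16 and 15.73 under AngII, and 1.03, 1.30 and 0.99 in saline (2.19, SE 0.35, limma adjusted p = 0.160). With AngII alone Ier3 and Ccl8 rose past the threshold (limma adjusted p = 0.0178 for both). Angptl4, Ier3 and Col5a3 passed for AngII+PGE1 against saline without saline 2 (limma adjusted p = 0.0320, 0.0156 and 0.0217) and without saline 2 and AngII+PGE1 1 (0.0345, 0.0160 and 0.0438). Further genes with no overlap and a small p were Rhobtb1 (0.86) and Il18bp (0.80), which lay higher, and Tspan18 (-1.18), Creb3l1 (-1.13), Cryba4 (-1.04), Pcdh12 (-1.04) and Ralgds (-0.77), which lay lower.

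**Figure D1:**
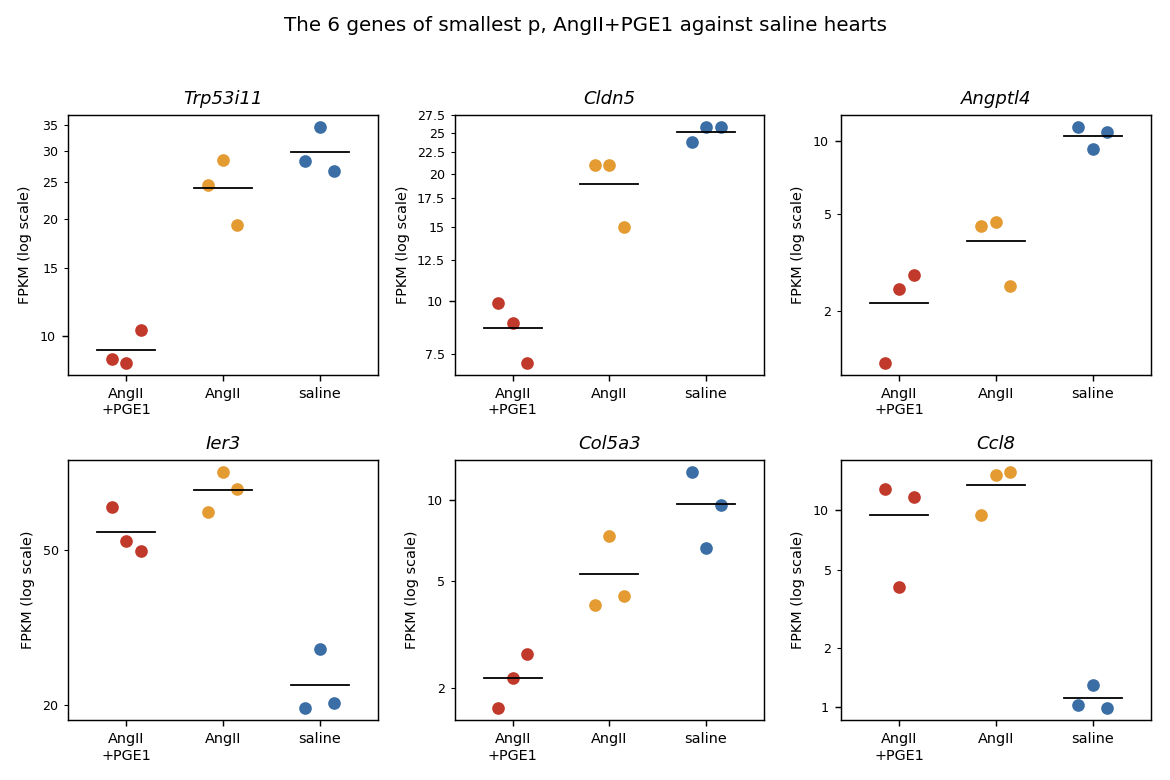
FPKM (log axis) of the 6 genes of smallest p in each library of AngII+PGE1, AngII and saline hearts. Points are libraries and bars are group means; for Trp53i11 and Cldn5 the AngII+PGE1 libraries lie below all others, while Ier3 and Ccl8 lie above saline under both treatments.

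Endothelial genes beyond Cldn5 lay mostly below saline. Of 24 endothelial genes tested, 22 had a negative difference from saline (66% of all genes), 8 did not overlap saline and were lower, against 7.89% of all genes, and 1 (Cldn5) passed the test. The median was -0.34 log2, against -0.07 for all genes, and -0.27 for AngII alone. Under both agents the median was -0.24 without saline 2, -0.47 without AngII+PGE1 1 and -0.28 without both. Kdr, the main VEGF receptor, had 20.00, 20.56 and 30.48 FPKM under both agents, 22.78, 17.99 and 8.36 under AngII, and 53.35, 30.51 and 49.58 in saline (-0.87, SE 0.34, limma unadjusted p = 0.0296). Cdh5, or VE-cadherin, had 61.15, 47.12 and 66.15 FPKM under both agents, 75.98, 75.55 and 37.18 under AngII, and 105.95, 107.27 and 96.01 in saline (-0.83, SE 0.26, limma unadjusted p = 0.0101). For both genes AngII alone was also below saline, and the difference between AngII+PGE1 and AngII missed the threshold (limma adjusted p = 0.243 for Kdr and 0.896 for Cdh5). The endothelial receptor genes Tek (-0.42) and Tie1 (-0.49) followed in the same direction.

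The pan-endothelial adhesion gene Pecam1 overlapped saline, with 64.89, 54.26 and 81.03 FPKM under both agents, 68.87, 83.37 and 46.44 under AngII, and 97.34, 87.56 and 79.81 in saline (-0.41, SE 0.23). Cldn5 thus lay further below saline than the other 23 members. Aqp1, the endothelial water channel, and Vwf, von Willebrand factor, lay lower under AngII alone (-1.52, limma adjusted p = 0.0332, and -1.06, limma adjusted p = 0.0636) and near saline under both agents (-0.11 and -0.13). Aplnr, the apelin receptor, which the list does not hold, had 9.71, 6.84 and 7.42 FPKM under both agents, 20.62, 25.26 and 11.62 under AngII, and 29.64, 21.37 and 25.17 in saline (-1.56, SE 0.26, limma adjusted p = 0.228). All 3 AngII+PGE1 libraries were below the 6 others.

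Collagen genes lay below saline more often than genes at large. Of 18 tested fibrillar and basement membrane collagens, 17 had a negative difference from saline (66% of all genes), 12 did not overlap and were lower (7.89% of all genes), 8 were lower at an unadjusted p under 0.05 (3.12% of all genes), and 0 passed the adjusted test. Their median was -0.80 log2 under both agents and 0.26 under AngII alone. It was -1.05 without saline 2, -0.57 without AngII+PGE1 1 and -0.74 without both. Relative to the saline mean, the median collagen stood at -1.27, -0.60 and -0.54 in AngII+PGE1 1, 2 and 3, -0.18, 1.19 and -0.19 in AngII 1, 2 and 3, and 0.31, -0.41 and 0.07 in saline 1, 2 and 3. The AngII+PGE1 libraries were the 3 lowest, and among the AngII libraries AngII 2 alone lay above the saline mean.

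Col5a3, a minor fibrillar collagen chain, had 1.69, 2.19 and 2.69 FPKM under both agents, 4.09, 7.38 and 4.41 under AngII, and 12.73, 6.63 and 9.58 in saline (-1.71, SE 0.26, limma adjusted p = 0.132). Each AngII+PGE1 library was below each other library. Col3a1, the fibrillar collagen of compliant tissue, had 14.86, 27.20 and 28.22 FPKM under both agents, 55.37, 352.42 and 100.83 under AngII, and 93.95, 43.74 and 74.83 in saline (-1.54, SE 0.57, limma unadjusted p = 0.0226). Col1a1, the main fibrillar collagen, had 14.63, 33.70 and 31.45 FPKM under both agents, 56.41, 375.52 and 124.72 under AngII, and 57.56, 36.45 and 48.92 in saline (-0.88, SE 0.57, limma unadjusted p = 0.155). For Col1a1 the AngII+PGE1 and saline ranges were separated by less than 3 FPKM.

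Both main basement membrane chains lay below saline without overlap. Col4a1 had 28.56, 46.98 and 64.65 FPKM under both agents, 69.51, 152.39 and 65.69 under AngII, and 161.00, 80.83 and 125.88 in saline (-1.39, limma unadjusted p = 0.00498). Col4a2 had 28.58, 47.21 and 59.45 FPKM under both agents, 75.25, 147.42 and 68.58 under AngII, and 116.34, 81.44 and 100.60 in saline (-1.17, limma unadjusted p = 0.00496). In both, AngII+PGE1 1 was the lowest library and saline 1 the highest saline library. RefSeq places their annotated starts 21 bases apart on opposite strands of chromosome 8 (GRCm38.p6, 11312826 for Col4a1 and 11312805 for Col4a2), and the pair is known to share a bidirectional promoter.

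Beside the collagens, 29 matricellular and secreted matrix genes had a median of -0.13, which was -0.27 without saline 2. Of these, 18 were negative (66% of all genes) and 4 were lower without overlap (7.89% of all genes). Serpinh1, the collagen chaperone HSP47, had 75.32, 73.94 and 76.73 FPKM under both agents, 133.72, 215.40 and 87.98 under AngII, and 203.26, 93.35 and 174.78 in saline (-0.98, limma unadjusted p = 0.0165). Sparc, a collagen-binding matricellular protein, had 122.18, 190.90 and 187.09 FPKM under both agents, 445.88, 900.03 and 378.00 under AngII, and 373.71, 282.60 and 305.83 in saline (-0.96, limma unadjusted p = 0.0120). Eln, the elastin gene, was at 13.44, 9.28 and 18.93 FPKM under both agents and at 42.57, 22.16 and 36.89 in saline (-1.23, limma unadjusted p = 0.0147). Of 22 integrin and laminin genes, 18 were negative (66% of all genes) and 9 did not overlap saline and were lower (7.89% of all genes), with a median of -0.33. They include Itga6, an integrin of laminin binding (-0.82), the endothelial laminin chain Lama4 (-0.58) and perlecan, Hspg2 (-0.52).

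Fibroblast genes had a median of -0.23. Of 19 tested, 16 were negative (66% of all genes) and 6 did not overlap saline and were lower (7.89% of all genes). Among the defining fibroblast genes, Pdgfra had 4.36 to 5.5 FPKM under both agents and 6.38 to 7.26 in saline, and Tcf21 had 4.09 to 5.19 and 7.17 to 7.94 FPKM in the same groups, whereas the proteoglycan gene Dcn overlapped at 249.01 to 357.34 FPKM under both agents and 279.82 to 351.21 in saline. Of 17 smooth muscle and pericyte genes 12 were negative, near the 66% of all genes, and 5 were lower without overlap (7.89% of all genes). Their median was -0.19, and -0.04 without saline 2 and -0.30 without AngII+PGE1 1. The smooth muscle myosin Myh11 overlapped saline, at 6.11 to 8.99 FPKM under both agents and 4.68 to 10.55 in saline. Acta2, smooth muscle actin, had 35.70, 71.30 and 62.31 FPKM under both agents, 201.72, 71.34 and 56.95 under AngII, and 238.52, 100.98 and 129.17 in saline (-1.41, limma unadjusted p = 0.0138). Whether the numbers of fibroblasts, mural or endothelial cells took part in the collagen and endothelial differences was not tested. Of 18 cell cycle genes 17 were negative (66% of all genes) and 9 did not overlap saline and were lower (7.89% of all genes), with a median of -0.41, but 0 reached an unadjusted p under 0.05 in either direction. Plk1, a mitotic kinase, had 0.47, 0.26 and 0.12 FPKM under both agents, 1.77, 3.94 and 0.86 under AngII, and 1.04, 0.88 and 0.67 in saline. Plk1, Rrm2 and Cdc20 were under 1 FPKM in every AngII+PGE1 library. They met the rule of 1 FPKM only through AngII and saline libraries, which favours a negative difference for such low genes.

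**Figure D2:**
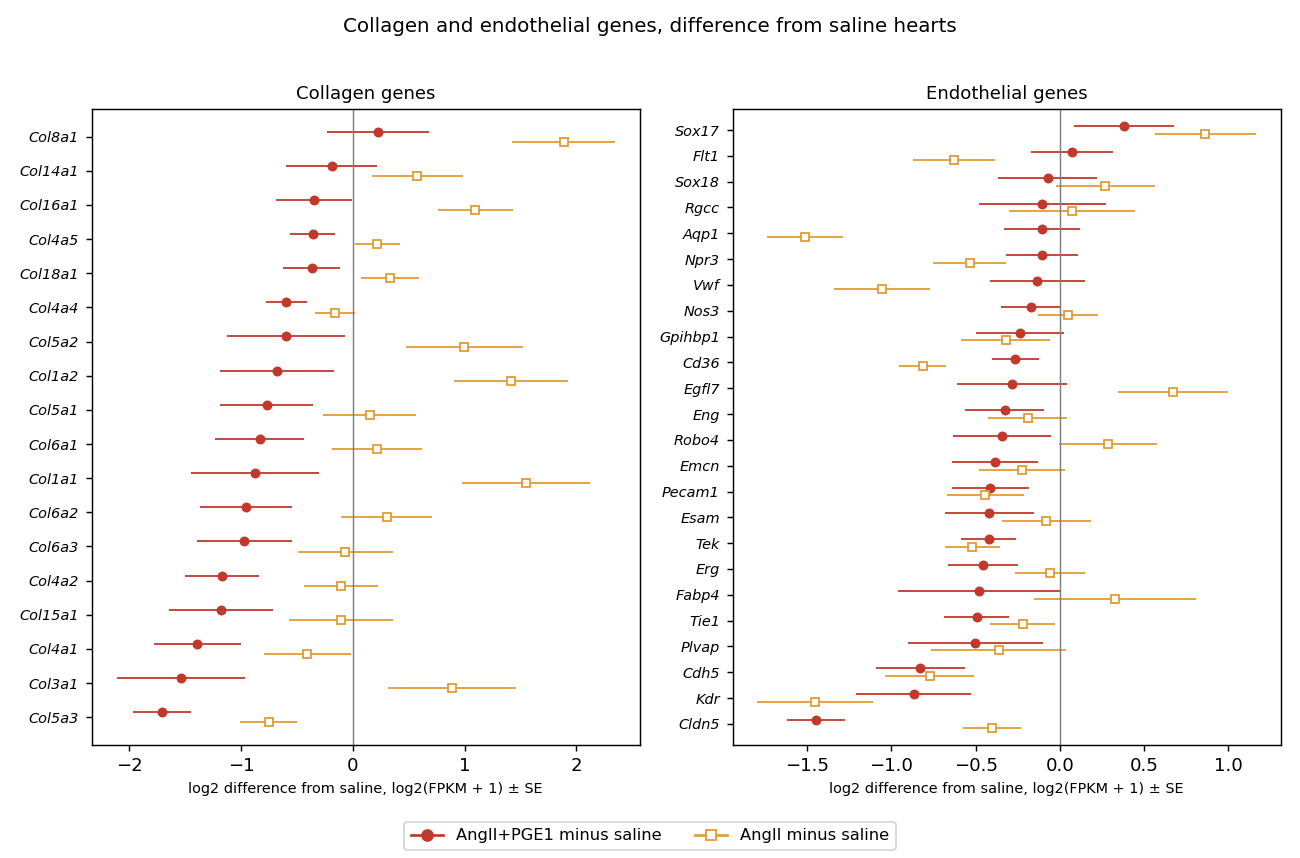
Log2 difference from saline, with its SE, of each tested collagen gene (left) and endothelial gene (right) for AngII+PGE1 (filled circles) and AngII (open squares). AngII+PGE1 lies left of 0 for 17 of 18 collagens and 22 of 24 endothelial genes.

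Some genes stayed apart from saline: they differed between AngII and saline (limma adjusted p under 0.05), and under both agents kept the direction with no overlap and an unadjusted p under 0.05. Of these, 17 were higher and 25 lower. They were drawn from the 156 genes higher and 214 lower in AngII against saline. Among all genes, 1.12% were higher and 3.12% lower under both agents than in saline at an unadjusted p under 0.05. Without overlap, 2.3% of all genes were higher and 7.89% lower. Both comparisons use the same saline libraries, so an unusual saline value moves both the same way. The rule chose the genes on these values, which are given as a description. Besides Ier3 and Ccl8, the interferon-induced genes Ifit1 and Irf7 belonged to the higher ones, and Angptl4 belonged to the lower ones. Ifit1, which binds foreign RNA, had 14.40, 6.33 and 3.81 FPKM under both agents, 17.66, 10.73 and 24.90 under AngII, and 3.06, 3.60 and 1.95 in saline. AngII+PGE1 3 lay only just above the highest saline library. Irf7, a master regulator of interferon genes, had 43.62, 31.13 and 24.56 FPKM under both agents, 51.07, 32.78 and 57.45 under AngII, and 18.60, 18.49 and 10.73 in saline.

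Other staying genes were higher by smaller steps. Eif4ebp1, the brake on cap-dependent translation, had 181.88, 237.10 and 198.12 FPKM under both agents, 177.14, 199.47 and 281.77 under AngII, and 102.44, 134.03 and 103.41 in saline (0.86, SE 0.21). Apod, a lipid-binding lipocalin, had 10.30, 9.87 and 12.72 FPKM under both agents, 12.66, 11.44 and 21.90 under AngII, and 4.74, 6.84 and 4.51 in saline (0.92, SE 0.24). For both genes the AngII+PGE1 and AngII ranges overlapped. Cnksr1 (1.01) and Slamf9 (0.55) were also higher.

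Among the lower staying genes, Ucp3, the uncoupling protein of muscle mitochondria, had 16.52, 16.56 and 22.93 FPKM under both agents, 18.92, 11.32 and 11.83 under AngII, and 28.92, 40.14 and 33.52 in saline (-0.84, SE 0.22). Colq, the collagen-like tail of acetylcholinesterase, had 2.18, 4.67 and 3.90 FPKM under both agents, 1.15, 2.47 and 2.82 under AngII, and 9.39, 6.39 and 8.04 in saline (-0.99, SE 0.27). Pla2g5, a secreted phospholipase that releases arachidonic acid, had 19.46, 18.38 and 15.12 FPKM under both agents, 7.10, 7.68 and 4.84 under AngII, and 29.20, 20.79 and 39.27 in saline. It lay between AngII and saline, -0.68 from saline and 1.32 from AngII (limma adjusted p = 0.0515). Rnf144a (-0.99), Vstm4 (-0.81), Fam131a (-0.68) and Ano10 (-0.67) were also lower. With Angptl4, these are the 8 of largest difference among 19 lower staying genes with a name and a mean of 5 FPKM. Mlycd and Dusp1, described below, met the staying rule as well.

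A second set was new under both agents: it stood apart from both saline and AngII in the same direction with no overlap and an unadjusted p under 0.05, while AngII alone lay within 0.3 log2 of saline. Of all genes 33.6% had an unadjusted p under 0.05 and 36.1% did not overlap between AngII+PGE1 and AngII. Here 21 were higher and 51 lower, again by a rule on these values. Mid1ip1, an activator of acetyl-CoA carboxylase, had 80.20, 89.77 and 86.00 FPKM under both agents, 39.13, 51.71 and 46.72 under AngII, and 54.81, 50.48 and 48.98 in saline (0.72 from saline, SE 0.15). It passed the test against AngII at 0.89 (limma adjusted p = 0.0449). Pfkfb3, which makes the activator of phosphofructokinase, had 6.01, 3.66 and 6.43 FPKM under both agents, 1.82, 2.17 and 2.68 under AngII, and 2.40, 3.20 and 2.18 in saline (0.81, SE 0.21).

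Myom2, the sarcomeric M-protein, had 283.80, 426.08 and 365.35 FPKM under both agents, 143.23, 163.98 and 263.71 under AngII, and 202.73, 169.29 and 216.00 in saline (0.86, SE 0.25). Myot, the Z-disc protein myotilin, had 25.20, 27.36 and 37.30 FPKM under both agents, 17.42, 19.04 and 24.56 under AngII, and 18.89, 16.50 and 14.14 in saline (0.81, SE 0.20). In Myot the lowest AngII+PGE1 library lay just above the highest AngII library. Cyp1a1, the classic target of the aryl hydrocarbon receptor, had the largest difference, with 3.92, 8.58 and 4.11 FPKM under both agents, 3.88, 0.27 and 0.72 under AngII, and 0.47, 3.34 and 0.18 in saline (1.67, SE 0.57). AngII 1 and saline 2 nearly reached the AngII+PGE1 range. Gsta3 (0.67), Hlf (0.63) and Lgals3bp (0.58) were also higher.

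Among the lower new genes, Prnd, which encodes the prion-like protein doppel, had 1.17, 0.93 and 0.67 FPKM under both agents, 10.43, 15.70 and 1.78 under AngII, and 7.48, 7.08 and 6.46 in saline (-2.06, SE 0.52). Rflnb, a filamin-binding refilin, had 13.63, 9.96 and 12.42 FPKM under both agents, 27.21, 44.20 and 22.68 under AngII, and 32.51, 27.32 and 32.12 in saline (-1.29, SE 0.23, limma adjusted p = 0.338). Vash1, the endothelial angiogenesis inhibitor vasohibin-1, had 3.69, 3.53 and 3.72 FPKM under both agents, 8.61, 10.50 and 4.08 under AngII, and 9.40, 7.29 and 8.38 in saline (43.6% of the saline mean). Col4a2 and Serpinh1, described above, belonged here too, with Marcks (-0.73), Grap (-0.73) and Cmtm3 (-0.71).

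**Figure D3:**
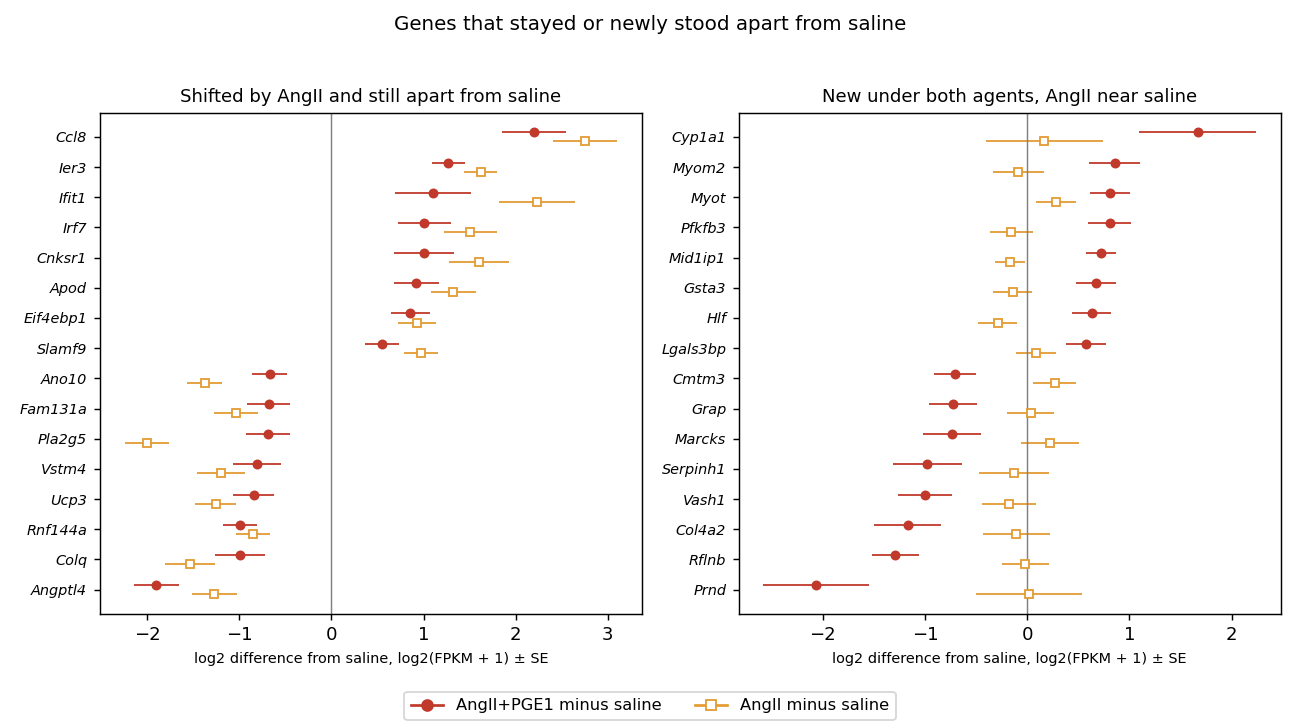
Log2 difference from saline, with its SE, of the named genes that stayed apart from saline (left) and of those new under both agents (right), for AngII+PGE1 (filled circles) and AngII (open squares). On the left both treatments lie on the same side of 0; on the right AngII lies within 0.3 of 0. The rule chose the genes on these values.

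Hypertrophy genes spread widely between libraries of the same group. Myh7, the fetal and slow myosin heavy chain, had 174.21, 1451.10 and 372.21 FPKM under both agents, 99.27, 688.20 and 1689.63 under AngII, and 12.44, 54.47 and 14.93 in saline. Every AngII+PGE1 library was above every saline library, and the AngII+PGE1 mean was 24.4-fold that of saline, but the spread was wide (4.32 log2, SE 1.03, limma adjusted p = 0.808). AngII alone gave 4.42 (limma adjusted p = 0.0503), and the direct comparison gave -0.10 (SE 1.03, limma adjusted p = 0.953). Nppa (atrial natriuretic peptide) overlapped saline, with 209.40, 4176.61 and 399.06 FPKM under both agents, 1390.51, 10008.80 and 10902.72 under AngII, and 168.31, 632.10 and 84.78 in saline (1.75, SE 1.16).

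AngII+PGE1 2 was the highest library of its group for Myh7, Nppa and Acta1. Acta1, skeletal actin, had 120.51, 2758.15 and 1473.27 FPKM under both agents, 1320.62, 2644.05 and 2268.22 under AngII, and 592.08, 546.91 and 541.15 in saline (0.50, SE 0.90). AngII+PGE1 1 was thus below all saline libraries and the other 2 were above them. Without AngII+PGE1 2 the difference turned to -0.41. The stretch-induced repressor gene Ankrd1 lay at 635.86, 1426.61 and 704.10 FPKM under both agents and at 532.09, 716.25 and 557.32 in saline (0.53, SE 0.39), and it rose under AngII alone (1.81, limma adjusted p = 0.0453). Nppb, the B-type natriuretic peptide, lay at 168.31, 777.14 and 517.46 FPKM under both agents, 641.84, 1015.39 and 684.80 under AngII, and 369.76, 274.83 and 243.47 in saline. The matrix gene Postn, periostin, lay at 7.86, 32.20 and 7.78 FPKM under both agents, 37.81, 455.92 and 89.91 under AngII, and 8.87, 10.82 and 6.54 in saline, so that AngII+PGE1 2 alone stood above saline. Ctgf, a matrix-inducing growth factor, stood 0.83 above saline (SE 0.56), and the profibrotic cytokine gene Tgfb1 stood at -0.30 (SE 0.17). Of 19 fetal and hypertrophic genes 13 were positive, against 4042 of all 11902 genes. Their median was 0.32 under both agents, which was 0.56 without saline 2 and AngII+PGE1 1, and 0.76 under AngII.

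Netrin-1 and the angiotensin type 1a receptor overlapped saline. Ntn1, the guidance cue netrin-1, had 10.85, 28.33 and 18.37 FPKM under both agents, 4.32, 6.06 and 4.71 under AngII, and 24.94, 9.39 and 18.95 in saline (0.11 from saline, SE 0.37), and its sign turned without saline 2 (-0.27) or AngII+PGE1 2 (-0.21). The EP3 receptor gene Ptger3 did not exceed 0.11 FPKM in any library, Ptger1 (EP1) did not exceed 1.13 and Ptger2 (EP2) did not exceed 0.12, and Ptger4, for EP4, was at 1.48 to 2.39 FPKM under both agents and 1.62 to 2.56 in saline. Agtr1a, the angiotensin type 1a receptor, had 22.25, 27.16 and 26.92 FPKM under both agents, 10.17, 11.44 and 12.88 under AngII, and 19.23, 17.53 and 23.15 in saline (0.34 from saline, SE 0.16). It passed against AngII (1.08, limma adjusted p = 0.0395). Ace, which makes angiotensin II, stood at -0.10 from saline (SE 0.24). Penk, proenkephalin, had 7.84, 6.11 and 5.97 FPKM under both agents, 1.45, 1.12 and 1.11 under AngII, and 4.19, 8.21 and 4.34 in saline, overlapping saline and passing against AngII (1.77, limma adjusted p = 0.0310).

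Atp2a2, the sarcoplasmic calcium pump, had 1322.39, 2000.06 and 2734.41 FPKM under both agents, 581.08, 648.84 and 546.88 under AngII, and 3500.39, 1102.10 and 3723.33 in saline (-0.33 from saline, SE 0.44). Saline 2 lay far below the other saline libraries, and without it the difference was -0.90. Pdk4, the kinase that shuts pyruvate dehydrogenase, had 30.66, 78.01 and 115.11 FPKM under both agents, 26.89, 28.58 and 29.86 under AngII, and 174.38, 68.23 and 179.57 in saline (-0.97, SE 0.47). Its AngII+PGE1 range reached saline 2, and the difference was -1.43 without that library and -0.44 without AngII+PGE1 1. The 32 fatty acid oxidation genes had a median of -0.07 under both agents and -0.89 under AngII alone, where 15 fell (1.8% of all genes). Under both agents the median was -0.21 without saline 2 and -0.02 without AngII+PGE1 1. In 3 of the 32 AngII+PGE1 lay below saline without overlap, near the 7.89% of all genes. Mlycd, malonyl-CoA decarboxylase, had 56.16, 51.75 and 63.34 FPKM under both agents, 37.66, 37.38 and 45.49 under AngII, and 71.05, 77.37 and 74.90 in saline (-0.38, SE 0.15, limma unadjusted p = 0.0254).

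**Figure D4:**
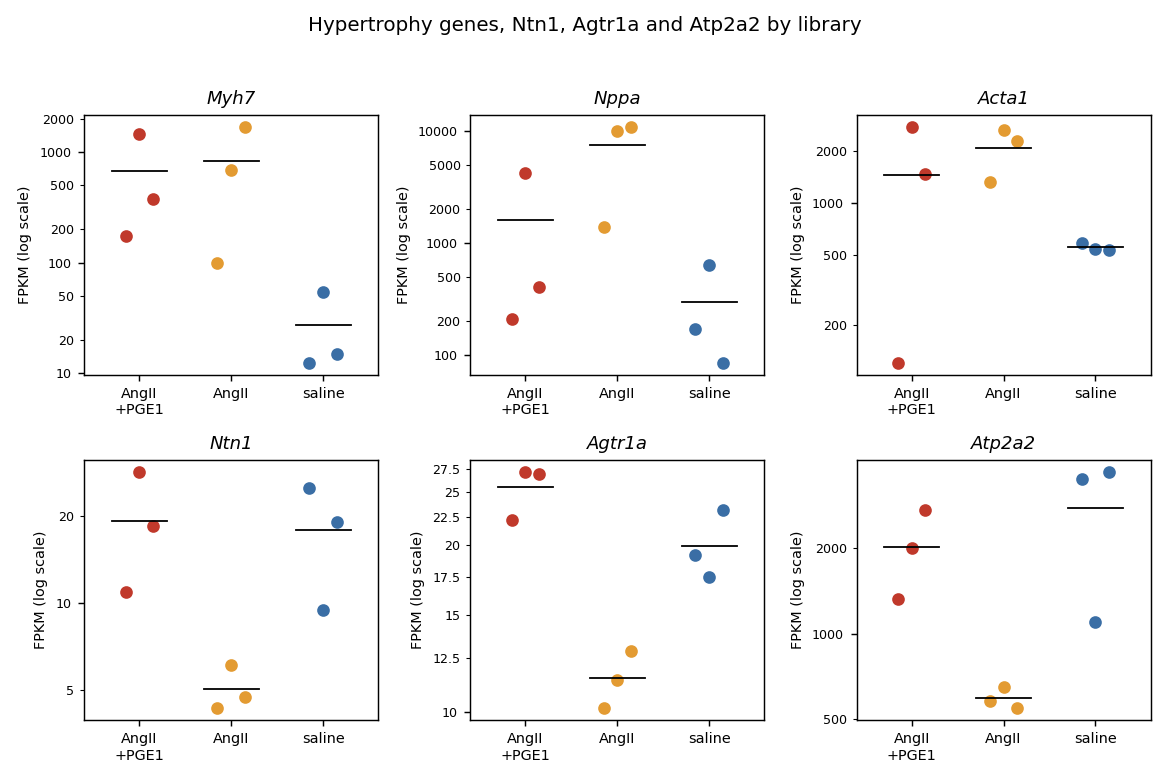
FPKM (log axis) in each library of AngII+PGE1, AngII and saline hearts for Myh7, Nppa, Acta1, Ntn1, Agtr1a and Atp2a2, with bars at group means. Myh7 is above saline in all 3 AngII+PGE1 libraries, while the other 5 genes overlap saline.

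Antigen presentation and interferon-response genes lay above saline mainly in 1 library. Igtp, an interferon-gamma-induced GTPase, had 165.02, 22.85 and 60.30 FPKM under both agents, 23.36, 17.82 and 59.87 under AngII, and 12.07, 11.71 and 9.25 in saline (2.39, SE 0.62, limma adjusted p = 0.890). H2-K1, a class I histocompatibility chain, had 407.14, 205.26 and 176.66 FPKM under both agents, 193.85, 167.54 and 193.98 under AngII, and 116.38, 134.91 and 98.94 in saline (1.08, SE 0.28). Both genes were highest in AngII+PGE1 1, and all AngII+PGE1 libraries exceeded saline.

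Of 16 antigen presentation genes 13 were positive (4042 of all 11902 genes), 3 did not overlap saline and were higher, against 2.3% of all genes, and 0 passed the adjusted test. Their median was 0.32, and 0.07 without AngII+PGE1 1. Of 25 interferon-response genes 14 were positive and 4 did not overlap saline and were higher (2.3% of all genes), with a median of 0.23, which was -0.01 without AngII+PGE1 1, against 0.89 under AngII alone, where 7 rose (1.31% of all genes). Ifi27 was less bound to that library, with 81.56, 74.49 and 49.38 FPKM under both agents, 61.06, 36.79 and 52.59 under AngII, and 26.42, 32.90 and 19.51 in saline (1.35, SE 0.26, limma adjusted p = 0.507). H2-Q6, a class I-like chain, had 19.35, 15.03 and 17.93 FPKM under both agents, 5.89, 9.20 and 5.76 under AngII, and 10.49, 10.70 and 6.98 in saline, and passed against AngII (1.23, limma adjusted p = 0.0484). It belongs to a family of near-identical genes whose reads the authors' counting could have split, so its level is uncertain.

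The Ifit1 promoter is shown because it carries the known element for interferon-activated factors. Capitals mark the core of the interferon-stimulated response element (GAAA, any 2 bases, GAAA), searched on both strands of the 250 bases before the start. The window is chr19:34640639-34640888 (plus strand, GRCm38.p6, RefSeq) and holds 2 copies, ending 94 and 75 bases before the start. Of the interferon-response genes tested, 19 had a window and 9 of these held the element (47.4%), against 3.46% of all genes with a window.
Ifit1: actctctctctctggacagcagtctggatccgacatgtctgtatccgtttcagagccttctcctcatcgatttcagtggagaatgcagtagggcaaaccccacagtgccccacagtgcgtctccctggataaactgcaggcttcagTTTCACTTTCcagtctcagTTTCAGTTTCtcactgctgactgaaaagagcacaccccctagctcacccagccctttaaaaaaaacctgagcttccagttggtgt

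Core clock genes separated saline 1 and 3 from the other 7 libraries. Arntl, which encodes the activator BMAL1, had 0.57, 1.06 and 1.24 FPKM under both agents, 0.21, 0.89 and 0.86 under AngII, and 12.05, 1.34 and 11.27 in saline. Npas2, a partner of BMAL1, had 0.72, 1.04 and 0.89 FPKM under both agents, 1.04, 0.81 and 0.83 under AngII, and 4.01, 0.95 and 3.61 in saline. Dbp, an output gene of the clock, ran the other way, with 119.35, 81.41 and 69.33 FPKM under both agents, 172.31, 130.44 and 106.59 under AngII, and 9.88, 181.56 and 9.83 in saline. In all 3 genes saline 2 lay nearer to the treated libraries than to saline 1 and 3.

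The repressors and outputs Per2, Tef and Ciart followed Dbp. Per2 had 12.57, 6.04 and 7.72 FPKM under both agents, 18.86, 11.48 and 7.32 under AngII, and 0.66, 8.59 and 0.54 in saline. Tef had 67.84, 66.21 and 69.07 FPKM under both agents, 91.94, 55.66 and 62.49 under AngII, and 24.70, 65.63 and 25.76 in saline. Ciart, a repressor of BMAL1, had 7.87, 5.10 and 8.88 FPKM under both agents, 14.03, 9.36 and 5.02 under AngII, and 1.73, 14.23 and 1.23 in saline. Among 19 clock genes 7 lay lower and 4 higher in saline 1 and 3 than in all other libraries (57.9%, against 26.3% of all genes). Arntl, Npas2, Tef, Dbp and Per2 were among the 23 genes that passed when saline 2 was left out, and Dbp (-1.04) and Per2 (-0.03) turned sign against saline 2 alone. The hour of collection cannot be told apart from the other differences between these libraries.

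The promoters of Ciart and Tef are shown for the E-box that BMAL1 and its partners bind. Capitals mark CACGTG in the 250 bases before the start (GRCm38.p6, RefSeq). The Ciart window is chr3:95882229-95882478 (minus strand) and holds 3 copies, ending 110, 52 and 38 bases before the start. The Tef window, the first of its annotated starts, is chr15:81802423-81802672 (plus strand) and holds 1 copy, ending 121 bases before it. Of the tested clock genes 16 had a window and 5 held the E-box (31.2%), against 6.86% of all genes.
Ciart: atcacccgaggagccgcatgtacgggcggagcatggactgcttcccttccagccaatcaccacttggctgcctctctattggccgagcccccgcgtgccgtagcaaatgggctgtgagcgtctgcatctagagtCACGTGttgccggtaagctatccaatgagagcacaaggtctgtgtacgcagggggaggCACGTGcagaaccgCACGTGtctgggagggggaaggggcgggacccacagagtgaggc
Tef: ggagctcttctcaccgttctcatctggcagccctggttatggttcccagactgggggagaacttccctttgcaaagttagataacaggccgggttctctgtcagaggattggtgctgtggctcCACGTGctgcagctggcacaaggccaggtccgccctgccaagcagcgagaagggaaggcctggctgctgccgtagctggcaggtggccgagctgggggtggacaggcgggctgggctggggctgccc

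**Figure D5:**
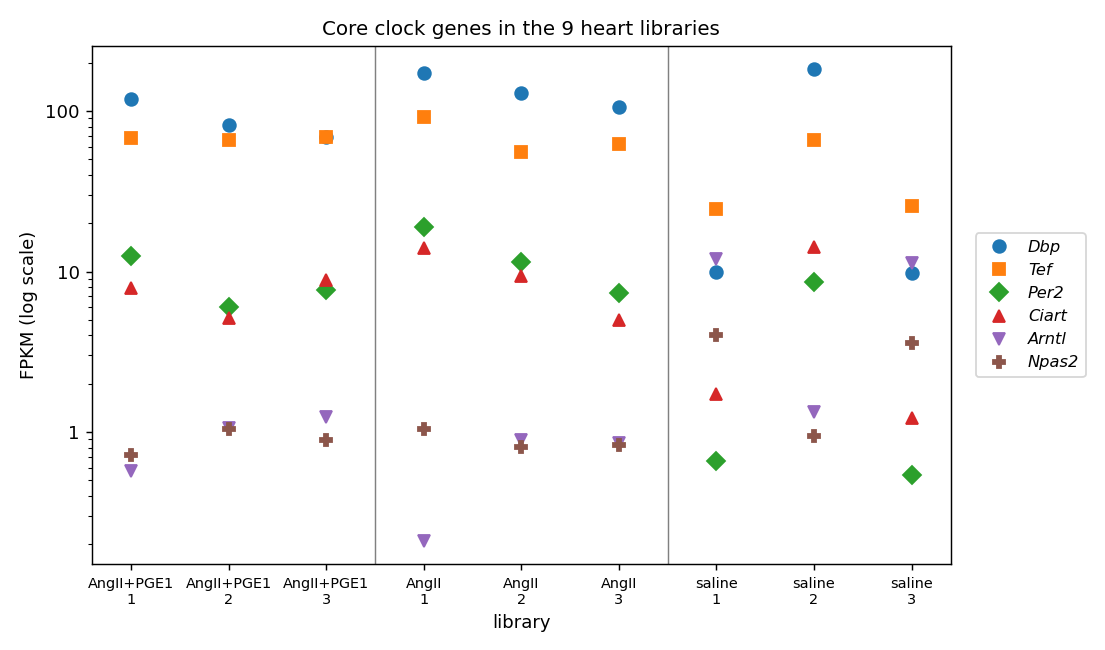
FPKM (log axis) of 6 core clock genes in the 9 libraries, ordered AngII+PGE1, AngII and saline. In saline 1 and 3 Arntl and Npas2 are high and Dbp, Tef, Per2 and Ciart low; saline 2 lies nearer to the treated libraries.

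Of 19 immediate early genes, 9 lay higher and 1 lower in saline 1 and 3 than in all other libraries (52.6%, against 26.3% of all genes), and 9 did not separate them. The lower one was Ier3. The list's median was -0.22, and -0.44 without saline 2. Nr4a1, an orphan nuclear receptor induced by cAMP, had 8.56, 6.61 and 5.45 FPKM under both agents, 6.78, 13.47 and 5.93 under AngII, and 65.08, 7 and 50.78 in saline. Sik1, a CREB-induced kinase, had 10.35, 7.38 and 9.34 FPKM under both agents, 8.94, 10.07 and 6.56 under AngII, and 32.57, 7.21 and 35.54 in saline. Of 13 cAMP and CREB target genes, 11 were negative against saline (66% of all genes) and 6 were lower at an unadjusted p under 0.05 (3.12% of all genes). Their median was -0.66, and -1.04 without saline 2. In 8 of the 13 (61.5%) saline 1 and 3 lay above all other libraries, against 2222 of all 11902 genes. Dusp1, a phosphatase of MAP kinases, lay below all saline libraries, with 46.44, 48.31 and 46.06 FPKM under both agents, 37.96, 30.49 and 16.34 under AngII, and 97.34, 55.36 and 75.56 in saline (-0.65, SE 0.29, limma unadjusted p = 0.0493). Nr4a3 was likewise lower without overlap, at 1.03, 0.63 and 0.85 FPKM under both agents and 2.10, 1.75 and 3.59 in saline.

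Hlf and Cry2, clock genes outside that split, were higher under both agents than in both other groups. Hlf, a PAR-domain transcription factor, had 10.15, 9.63 and 7.66 FPKM under both agents, 5.38, 4.56 and 3.27 under AngII, and 5.20, 6.48 and 4.96 in saline. Cry2, a clock repressor, had 9.06, 12.37 and 13.04 FPKM under both agents, 5.63, 5.82 and 5.39 under AngII, and 6.81, 8.37 and 8.79 in saline (0.47, SE 0.17). For both genes the AngII+PGE1 libraries were above all 6 others.

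Ptgds, which makes prostaglandin D2, had 526.38, 1114.21 and 1370.64 FPKM under both agents, 429.30, 439.73 and 1212.73 under AngII, and 171.89, 488.83 and 255.67 in saline (1.74, SE 0.51, limma adjusted p = 0.986). AngII+PGE1 1 was close to saline 2. Of 15 prostanoid receptor and synthesis genes tested, Ptgds was the only one higher without overlap (2.3% of all genes), and 10 of the 15 were negative, near the 66% of all genes. Herpud1, a gene of the endoplasmic reticulum stress response, had 131.67, 158.91 and 159.03 FPKM under both agents, 52.36, 60.51 and 63.77 under AngII, and 116.63, 88.83 and 112.56 in saline. It passed against AngII (1.33, limma adjusted p = 0.0310) and stood 0.50 above saline (SE 0.16).

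Markers of cells other than heart muscle varied between single libraries. Hba-a1, a haemoglobin chain, was at 679.13, 3580.59 and 59.75 FPKM under both agents, 106.38, 941.84 and 406.49 under AngII, and 89.44, 602.85 and 47.25 in saline, and the erythroid enzyme gene Alas2 was at 4.68, 44.77 and 0.30 FPKM under both agents, 0.48, 5.45 and 2.36 under AngII, and 1.09, 3.65 and 0.41 in saline. AngII+PGE1 2, the library with the most Nppa in its group, thus also had the most blood RNA. The mesothelial gene Upk3b was at 0.08 to 4.5 FPKM under both agents and 0.27 to 17.11 in saline. Of 5 neutrophil genes tested 4 were positive and 2 were higher without overlap (2.3% of all genes), with a median of 0.71. S100a9 was at 2.57, 2.33 and 4.29 FPKM under both agents and 1.84, 0.95 and 1.24 in saline, while Ly6g did not exceed 0.22 FPKM. The 5 macrophage markers summed to 108 to 160 FPKM under both agents and 124 to 172 FPKM in saline. Adipocyte (Adipoq) and skeletal myosin (Myh4, Myh1) genes did not exceed 0.11 FPKM in any library. The part of blood, mesothelial or leukocyte RNA in the differences above was not tested.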

How the data were processed

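The authors deposited 1 table of 16951 genes with FPKM for 9 libraries; the deposited header does not name the unit, which was read from the values (sums of FPKM differed by a ratio of 1.26 between libraries, and of FPKM times length by 1.09). The table also holds log2 ratios between groups made by the authors. For Trp53i11 and Cldn5 these are not the log2 ratios of the mean FPKM. Libraries were single-end, 50 bases, oligo(dT)-selected, per the labels' protocols. HISAT2 2.0.4, Bowtie2 2.2.5, RSEM 1.2.12 and build mm9 are named in the submitters' processing notes, with no role given; the sources used here give neither strand use nor annotation, and the depth is unknown. FPKM is relative to all reads on genes, so abundant transcripts lower the rest, and overlapping or antisense genes cannot be told apart. In the workbook 11 symbols stored as dates were restored from the gene ID, and 99.4% of IDs were in a RefSeq table.

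Columns name the group and not the replicate. Values were tested as log2(FPKM + 1), which understates changes of low genes, in 1 limma 3.58.1 model (R 4.3.3) of all 9 libraries with a variance trend and 6 residual degrees of freedom, for 11902 genes. P-values were Benjamini-Hochberg adjusted over all of them at 0.05. Members and 56 gene lists were chosen with earlier results of these data known, so lists are described by counts and medians only. Named genes were drawn from the 12 per direction of smallest p with no overlap and a mean of 5 FPKM. Further ones came from up to 8 staying and 8 new genes per direction, up to 3 genes per list and a fixed cardiac set. Ciart, Sik1 and others were named after their values were seen. The script was tested on simulated data with known changes.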

Additional observations from a re-analysis of the deposited data

How the results depend on the processing

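The number of genes that passed between AngII+PGE1 and saline, 2 as reported, was 0 without the filter on low values and without the variance trend, 1 (neither of the reported genes) in a model of the 6 libraries compared, 6 with a term for the side of the first component, 20 without saline 2 and AngII+PGE1 1, and 4717 with array weights, whose estimate did not converge. Leaving out 1 library gave 0 to 23. Against saline 2 alone, an alternative chosen after seeing the data that assumes the lone library to vary like the other groups, it was 1, again another gene. Without the low-value filter 770 genes, and without the trend 504 genes, had an unadjusted p under 0.05. Both genes were called again, and no other, with robust variance, a 1.5-fold limit, median-ratio scaling, quantile normalization, 0.1 as the pseudocount, or 5 FPKM as the minimum. Trp53i11 and Cldn5 kept their direction in all 22 alternatives (log2 -1.81 to -1.45 and -1.54 to -1.33) and passed in 11 of 22 each, with limma adjusted p of 5.26e-06 to 0.443 and 8.56e-06 to 0.72. Between AngII and saline the count of 370 became 0 to 4522 on leaving out 1 library, 5815 without saline 2 and AngII+PGE1 1, 21 with the component term, 7026 with array weights, 88 without the filter, 593 after quantile normalization and 0 against saline 2 alone. Between AngII+PGE1 and AngII the count of 48 became 0 to 3201 on leaving out 1 library, 772 in the 2-group model, 5332 without saline 2 and AngII+PGE1 1, 5 with the component term, 6766 with array weights, 6 without the filter, 245 after median-ratio scaling and 793 without saline 1 and 3. The genes staying apart numbered 0 to 262 higher and 0 to 652 lower, and the new ones 10 to 131 and 20 to 203. Signs of the log2 difference from saline turned, over single libraries left out, for Ace (-0.29 to 0.10), Acta1 (-0.41 to 1.85), Myh6 (-0.20 to 0.03), Ntn1 (-0.27 to 0.44) and Postn (-0.12 to 0.84), and against saline 2 alone for Ace (0.29), Atp2a2 (0.81), Dbp (-1.04), Penk (-0.28), Per2 (-0.03) and Ptger4 (0.08). The cause was not tested. No paired analysis was possible because the columns show the group but not which labelled replicate they hold. Count models were not run, since the table holds no counts, and the read depth behind each FPKM is unknown.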

Other observations

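Cytosolic ribosomal protein genes, which build the translating ribosome, lay above saline under both agents by small steps: 57 of 58 were positive (4042 of all 11902 genes), 2 did not overlap saline and were higher, near the 2.3% of all genes, and 0 passed the adjusted test. Their median was 0.22 under both agents, which was 0.48 without saline 2 and 0.06 without AngII+PGE1 1, and 0.52 under AngII alone. Relative to the saline mean it stood at 0.48, 0.10 and 0.02 in AngII+PGE1 1, 2 and 3, 0.70, 0.54 and 0.42 in AngII 1, 2 and 3, and -0.27, 0.52 and -0.21 in saline 1, 2 and 3. AngII+PGE1 1 and saline 2 thus lay with the AngII libraries. The 37 genes of respiratory complex I likewise stood above the rest of their groups in AngII+PGE1 1 and saline 2, with 0.26, -0.28 and -0.18 in AngII+PGE1 1, 2 and 3, 0.56, -0.08 and 0.31 in AngII 1, 2 and 3, and -0.22, 0.50 and -0.26 in saline 1, 2 and 3. Of 25 unfolded protein and integrated stress genes 20 were negative (66% of all genes), with a median of -0.18 that was -0.49 without saline 2 and -0.28 without AngII+PGE1 1. The 23 genes of the TCA cycle and ketone use had a median of -0.09 under both agents, -0.15 without saline 2 and -0.04 without AngII+PGE1 1, and -0.58 under AngII alone, where 7 fell (1.8% of all genes). In 32 further lists the medians ran from -0.31 (matrix proteases and inhibitors) to 0.43 (4 lymphocyte genes). Of these 4, Nkg7 and Cd8b1 met the rule of 1 FPKM only through treated libraries, which favours a positive difference. Outside that range, 6 blood genes had a median of 1.65, with 1.87, 4.59 and -1.16 in AngII+PGE1 1, 2 and 3, and 6 mesothelial genes had -0.56. Core clock genes had 0.27, prostanoid genes -0.10, and complex III, IV and ATP synthase genes -0.02.

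Some of the 23 genes that passed without saline 2, chosen after their values were seen, split saline 1 and 3 from the other libraries. Tcap, the Z-disc protein telethonin, had 2098.03, 1770.80 and 1594.68 FPKM under both agents, 3381.86, 1629.66 and 2067.39 under AngII, and 438.93, 3143.54 and 530.08 in saline. Irs2, an insulin receptor substrate, had 0.65, 1.70 and 1.71 FPKM under both agents, 0.55, 0.46 and 0.68 under AngII, and 7.38, 0.33 and 6.94 in saline. Adam19, a metalloprotease, had 6.67, 5.04 and 6.22 FPKM under both agents, 5.22, 6.84 and 6.40 under AngII, and 22.98, 3.66 and 23.40 in saline. Leo1, a subunit of the PAF elongation complex, passed as well, and its 3 AngII+PGE1 libraries (4.03, 3.63 and 3.57 FPKM) lay below all saline libraries (10.33, 5.16 and 9.63 FPKM).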
